A study of Homo sapiens with 36 samples.

Results

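RNA co-purified with the m6A reader YTHDF1 was compared with input RNA in cells with a YTHDF1-ADAR fusion, made from HEK293T, a line of human embryonic kidney origin. The comparison took every count column labelled as YTHDF1 RNA immunoprecipitation (RIP) or as input of these cells, 3 libraries against 3, which is 6 of the 36 libraries of the series. The series used cells with fusions of YTHDF1, YTHDF2 or YTHDF3 to the RNA-editing enzyme ADAR, which turns adenosine into inosine, and took input and RIP for each of the YTHDF proteins from each of the 3 lines. In all of them the fusion was induced with 1 ug/mL doxycycline for 24 h, so the input libraries carried the fusion and its editing activity as well. The antibodies were described as directed at the endogenous proteins. Whether the YTHDF1 antibody also captured the YTHDF1-ADAR fusion was not tested, and counts of YTHDF1 itself do not separate the endogenous message from that of the fusion. Input RNA was taken from part of the same kind of lysate, and both RNAs were treated with DNase, depleted of ribosomal RNA and made into libraries from an equal mass of RNA, so each value below is relative to the other RNAs of its own library. The replicates were not described as separate cultures. The p-values rest on the spread between libraries of a group, estimated with all 36 libraries of the series, and that spread may be technical.

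N6-methyladenosine (m6A) is placed on messenger RNA by a nuclear methyltransferase complex around METTL3 and METTL14, mainly within long internal exons, near stop codons and in 3′ untranslated regions. Proteins with a YTH domain bind the methylated base. YTHDF1, YTHDF2 and YTHDF3 are the closely related cytoplasmic members of that family and have been linked to the decay and the translation of methylated messages. Messages of genes for ribosomal proteins and other housekeeping functions are known for carrying little m6A, whereas those of many developmental regulators carry it often.

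The summed gene counts were 20654747, 30300222 and 29901454 in inputs 1 to 3, and 24219412, 22694841 and 33455244 in RIP 1 to 3. Protein-coding genes took 71.5% to 72.4% of the counts in the inputs and 86.1% to 88.0% in the RIP libraries. Input 1 stood apart from the other inputs. MiRNA genes took 9.41% of its counts, against 0.263% and 0.560% in inputs 2 and 3, and 7SL RNAs, the RNA part of the signal recognition particle, took 4.33%, against 11.5% in each of the others. Across 9960 genes, input 1 had a Pearson correlation of log2 levels of 0.946 and 0.954 with the other inputs, which reached 0.983 with each other. RIP 3 also stood apart, with 0.920 against each of RIP 1 and RIP 2, which reached 0.989 with each other. RIP 3 was the RIP library nearest to the inputs, at 0.703 to 0.730 against 0.539 to 0.600 for RIP 1 and RIP 2. No replicate pair agreed within sampling noise.

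**Figure D1:**
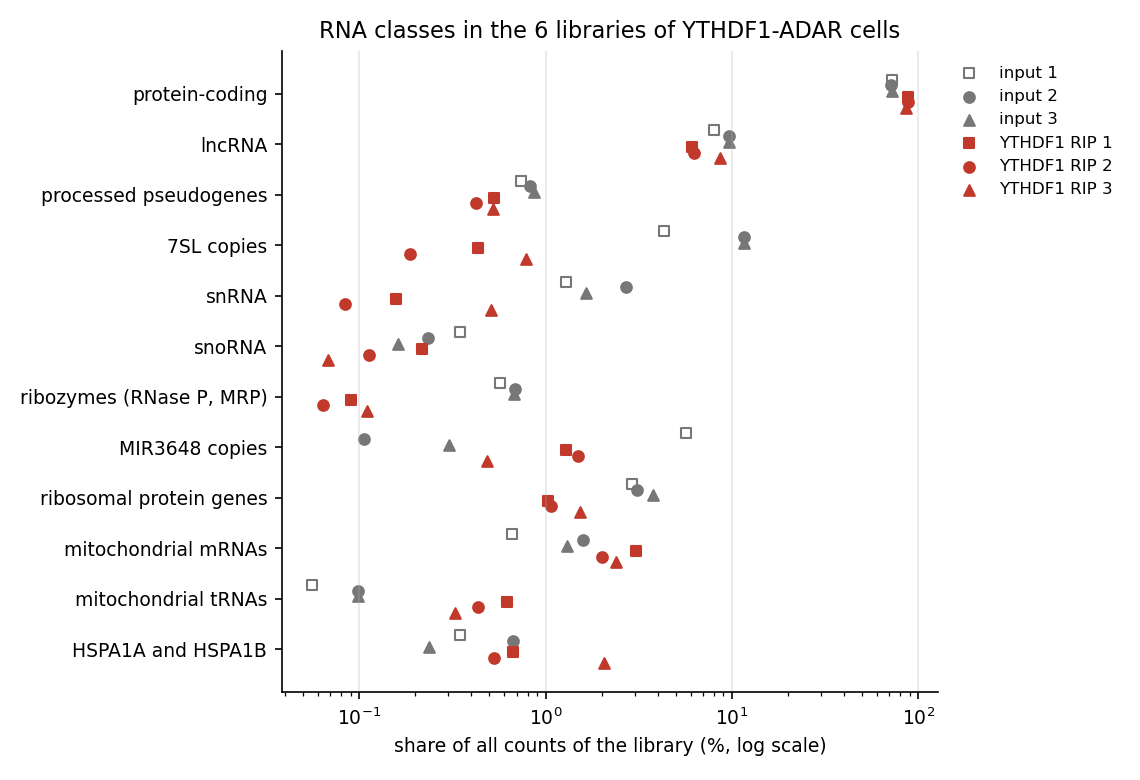
Percent of each library's gene counts (horizontal axis, log scale) taken by selected RNA classes in the 3 input and 3 YTHDF1 RIP libraries. Protein-coding genes sit between 71.5% and 72.4% in the inputs and between 86.1% and 88.0% in the RIP libraries. The MIR3648 copies take 5.63% of input 1.

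The miRNA share of input 1 came largely from 2 annotated copies of MIR3648, at chr21:8208473-8208652 and chr21:8986999-8987178 in GRCh38, which took 5.63% of its counts together. Reads with several matches were counted at each of them, so the copies cannot be told apart, and the counts are of the annotated hairpin region and not of the mature miRNA alone. MIR3648-1 had 28079, 655 and 1769 CPM (read counts per fixed library total, scaled between libraries by edgeR's trimmed mean of M values) in inputs 1 to 3, and 6127, 6875 and 2618 in RIP 1 to 3. The inputs lay on both sides of the RIP libraries. The fitted log2 fold change of RIP over input was −0.97 ± 0.95 (SE, adjusted p = 0.426, edgeR quasi-likelihood test with Benjamini-Hochberg adjustment), and 2.06 without input 1 (adjusted p = 0.0614). Other miRNA genes of chromosome 21, without a symbol, took 1.97% and 1.67% of input 1. Whether any of these counts come from a processed miRNA was not tested. The mature sequence is shown because counts at this annotation mark the library on which most left-out values below turn. Its seed (bases 2 to 8) is in capitals, from RefSeq on GRCh38.p14 at chr21:8987026-8987046, plus strand.

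hsa-miR-3648: aGCCGCGGggaucgccgaggg

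The cells carried the line's known neurofilament messages in input and RIP alike, with NEFM at 1414, 935 and 1883 CPM in the inputs and 1429, 1612 and 1717 CPM in the RIP libraries. Of the 8 markers of the line tested, 2 were higher in RIP and 3 lower. VIM had 232 to 318 CPM in the inputs and 129 to 155 CPM in RIP, and LHX1 had 3.57 to 4.44 and 10.6 to 12.9 CPM. Of markers of other cell types, PTPRC and HBB of blood cells, COL1A2 of fibroblasts and KRT5 of epithelia had no count in any of the 6 libraries. Others were present, COL1A1 of fibroblasts at 17.6 to 23.2 CPM and CDH1 of epithelia at 2.98 to 6.76 CPM. The summed level was 5.07 to 9.74 CPM in the inputs and 4.05 to 5.66 CPM in RIP for 7 blood markers, 23.5 to 27.5 and 21.5 to 22.7 CPM for 7 fibroblast markers, and 4.96 to 5.53 and 6.37 to 7.28 CPM for 7 liver and epithelial markers. Their part in the results was not tested.

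The first question was which RNAs were higher or lower in the YTHDF1 RIP than in the input. Of 60675 genes, 31849 passed the filter on low counts. The test called 6569 of them higher (20.6%) and 9186 lower (28.8%), and 4183 (13.1%) and 6340 (19.9%) were also changed at least 2-fold. It took the spread from all 36 libraries, and with the 6 libraries fitted alone 6008 genes were higher and 6106 lower. Among 15966 protein-coding genes, 4650 were higher (29.1%) and 5758 lower (36.1%), so a call in either direction was made for 65.2% of them, and the counts of any gene group below are to be read against these shares. The median log2 fold change was −0.28 over all genes tested and −0.16 over protein-coding genes, and the former was −0.13 with another scaling (DESeq2's size factors). Without input 1 these medians were −0.03 and −0.10, and in the 6 libraries fitted alone less input 1, a setting chosen after seeing the data, the former was 0.02. Groups did not overlap in CPM for 6749 genes with RIP higher (21.2%) and 8991 with RIP lower (28.2%).

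Without input 1, 6988 genes were higher (21.2%) and 8498 lower (25.8%) of 32958 tested. Of the genes called higher with all libraries, 5865 were called higher again (89.3% of those, 83.9% of the 6988). Of those called lower, 8035 were called lower again (87.5% of those, 94.6% of the 8498), and 0 genes were called in the opposite direction. Without RIP 3, 6781 genes were higher (20.6%) and 8639 lower (26.2%) of 32919 tested, with 6201 and 7966 shared with the calls from all libraries and 0 in the opposite direction.

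**Figure D2:**
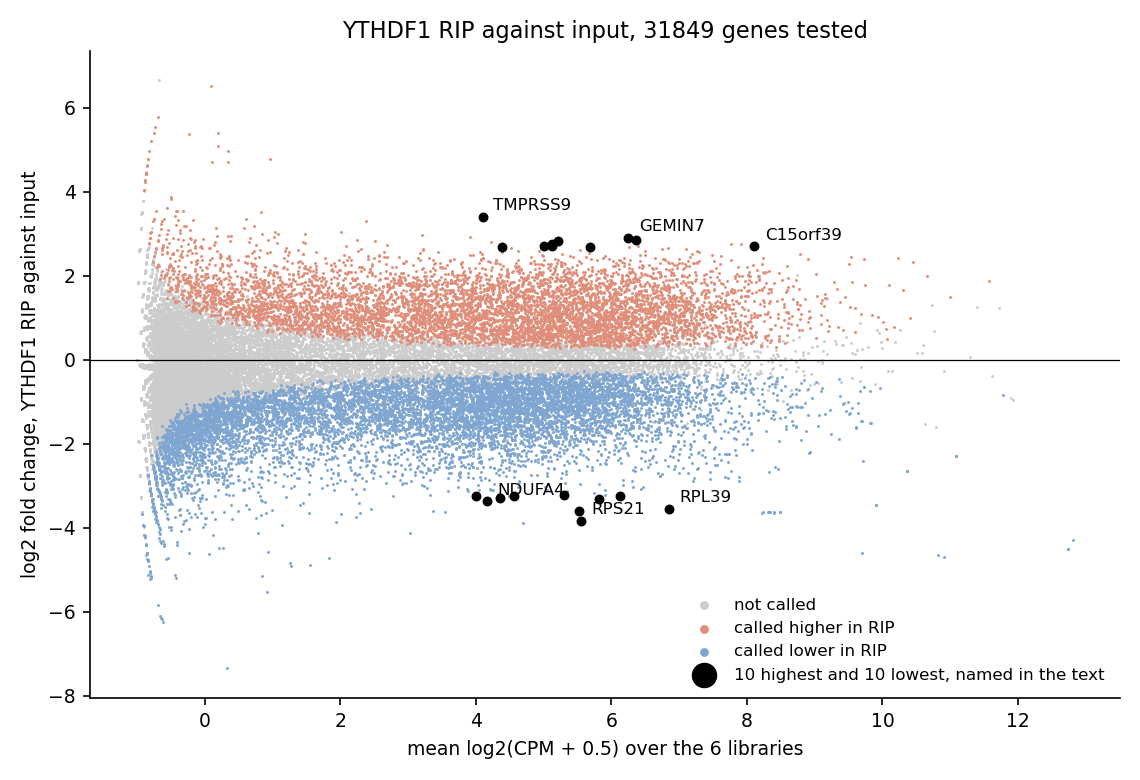
Log2 fold change of YTHDF1 RIP over input (vertical axis) against the mean level in the 6 libraries (log2 CPM, horizontal axis) for the genes tested, with called genes in colour. Called genes, 6569 higher and 9186 lower, lie across the range of levels.

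The highest fold changes among the 5897 protein-coding genes with a call, a mean log2 CPM of at least 4, groups that do not overlap and the same call without input 1 were found for messages of varied function. KCNJ8, a subunit of ATP-sensitive potassium channels, had 10.4, 13.1 and 13.6 CPM in the inputs and 86.4, 79.3 and 77.5 CPM in the RIP libraries. All 3 RIP libraries lay several-fold above every input, and the log2 fold change was 2.71 ± 0.18 (SE). SERTAD3, a transcriptional coregulator, had 12.6, 12.8 and 14.6 CPM in the inputs and 95.1, 84.2 and 83.5 CPM in RIP. Its groups were as tight and as far apart, with a log2 fold change of 2.71 ± 0.19. C15orf39 was the most abundant of the 10 highest genes, with 102.6, 130 and 93.9 CPM in the inputs and 816, 765 and 555 CPM in RIP. RIP 3 was the lowest of the RIP libraries for it, still above every input, and the log2 fold change was 2.71 ± 0.25. LRFN3, a synaptic adhesion protein, had 19.1, 21.3 and 21.3 CPM in the inputs and 157, 161 and 79.5 CPM in RIP. Here RIP 3 lay about midway between the inputs and the other RIP libraries, and the log2 fold change was 2.69 ± 0.22. TMEM51, a membrane protein, had 7.66, 8.23 and 7.98 CPM in the inputs against 54.6, 46.4 and 52.5 CPM in RIP, a log2 fold change of 2.69 ± 0.17 with no overlap.

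TMPRSS9, a membrane serine protease, ranked at the top, but its inputs disagreed. It had 12.7, 2.69 and 2.53 CPM in the inputs and 34.8, 58.9 and 93.5 CPM in RIP. Input 1 was well above the other inputs, and the log2 fold change was 4.53 without it. GEMIN7, a subunit of the SMN complex that assembles spliceosomal particles, had 30.6, 24.4 and 27.8 CPM in the inputs and 221.7, 184.5 and 214.7 CPM in RIP. Its groups were well apart, but its antisense neighbour GEMIN7-AS1 gave almost the same values in every library (29.6, 24.9 and 28.1 CPM in the inputs, 210, 178 and 208 CPM in RIP), and the counting used no strand, so the 2 genes cannot be told apart. CCDC71, TMEM121 and FKBPL, an FK506-binding-like protein, completed the set. Over the 10 genes the log2 fold changes ran from 2.68 to 3.41, and from 2.56 to 4.53 without input 1. The largest adjusted p was 1.01e-07. Their exon lengths ran from 1342 to 5807 bases with a median of 2081, and they had 2 to 20 exons with a median of 4. All 10 were also above 0 in the authors' deposited table of log2 fold changes for YTHDF1, 0.99 to 4.28, in which the groups compared are not stated. That table comes from the same series and the genes were picked for extreme values in its counts, so the shared sign is not separate support.

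Under the same conditions (a mean log2 CPM of at least 4, groups that do not overlap and the same call without input 1), the lowest protein-coding genes were led by messages of the ribosome and of the respiratory chain. RPS21, a protein of the small ribosomal subunit, had 149, 162 and 222 CPM in the inputs and 13.3, 8.47 and 15.7 CPM in RIP. The lowest input lay far above the highest RIP library, and the log2 fold change was −3.83 ± 0.25. TXN, the redox protein thioredoxin, had 132, 156 and 194 CPM in the inputs and 11.9, 9.12 and 18.8 CPM in RIP. No library came near the other group, and the log2 fold change was −3.59 ± 0.21. RPL39, RPL34 and RPS13 of the ribosome were at −3.54 ± 0.30, −3.31 ± 0.20 and −3.24 ± 0.22. Ribosomal protein genes have many processed pseudogene copies, and since reads with several matches were counted at each, their levels are uncertain.

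COX7A2, a subunit of cytochrome c oxidase, had 47.9, 59.1 and 82.4 CPM in the inputs and 6.57, 4.70 and 7.89 CPM in RIP, with a log2 fold change of −3.30 ± 0.21. NDUFA4, another subunit of the respiratory chain, was at −3.37 ± 0.26. HSPE1, the mitochondrial co-chaperonin, had 42.5, 100.5 and 89.7 CPM in the inputs and 6.14, 4.18 and 14.1 CPM in RIP. Its spread within groups was wider than that of the others, input 1 and RIP 3 being nearest to each other, and its log2 fold change was −3.24 ± 0.35. SNRPG, a core protein of spliceosomal particles, and SELENOF, a selenoprotein of the endoplasmic reticulum, were at −3.23 ± 0.24 and −3.22 ± 0.21. The 10 genes ran from −3.83 to −3.22, and from −3.98 to −3.45 without input 1, with a largest adjusted p of 4.32e-09. Exon lengths were 1010 to 3461 bases, and exon numbers 2 to 7 with a median of 5. All 10 were below 0 in the authors' deposited table, −3.76 to −2.39, with the same limit as for the highest genes.

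**Figure D3:**
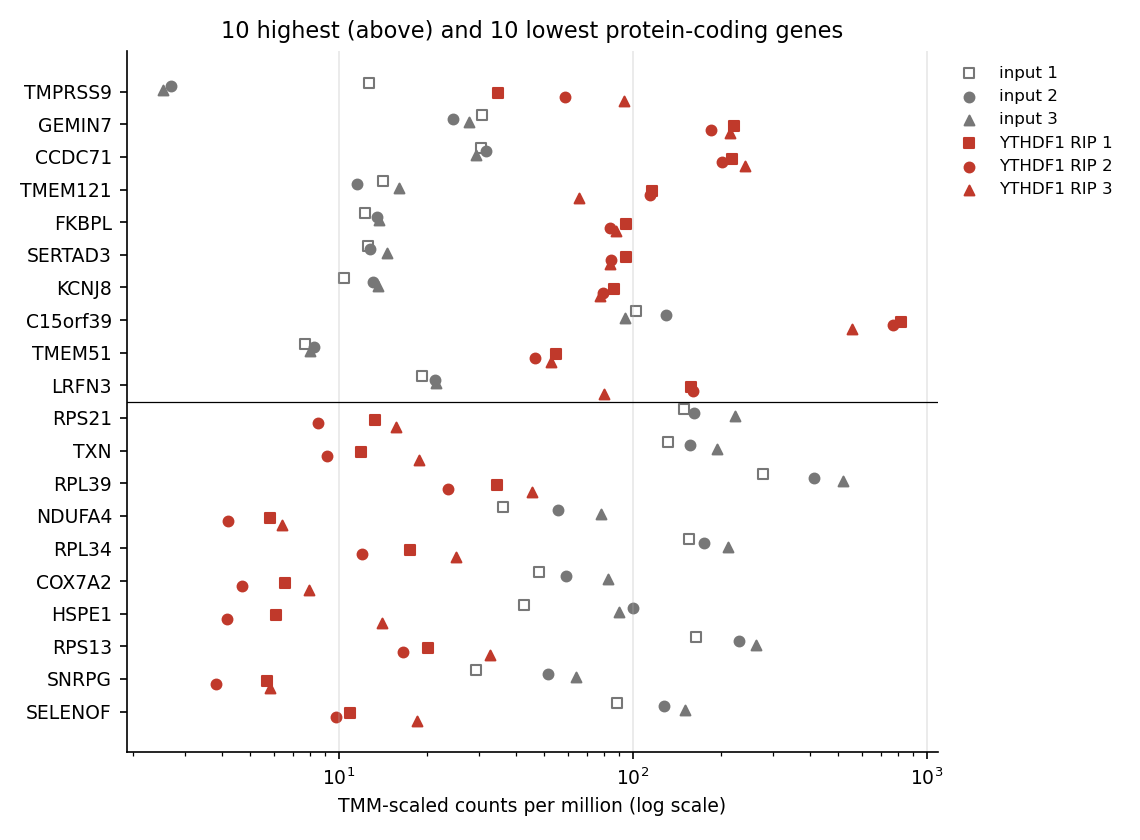
Level in each library (CPM, log axis) of the 10 protein-coding genes with the highest and the 10 with the lowest log2 fold change among those with a mean log2 CPM of at least 4, with inputs and YTHDF1 RIP as separate points. RIP points lie above all inputs for the former, from 2.68 to 3.41 in log2 fold change, and below all inputs for the latter, from −3.83 to −3.22.

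Start sites of these genes differed in their letters. Messages of ribosomal proteins are known for beginning with a C inside a run of pyrimidines. Shown are the 20 bases before (lower case) and 10 bases after (capitals) a RefSeq transcription start on GRCh38.p14, each read along the gene's strand, for 4 ribosomal protein genes and 2 others of the lowest set, followed by 4 of the highest set.

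RPS21 (chr20:62387083-62387112, plus strand): tgccgggtgactagctgcttCCTTTCTCTC
RPL39 (chrX:119791621-119791650, minus strand): gctcgttcttccgccagcttCCCTCCTCTT
RPL34 (chr4:108620556-108620585, plus strand): ctggcaaaggcttttttcttCCTCTTCCGG
RPS13 (chr11:17077658-17077687, minus strand): ggcgtttccactctcgctctCCTTTCGTTG
TXN (chr9:110256498-110256527, minus strand): gagagcaagcagcgagtcttGAAGCTCTGT
COX7A2 (chr6:75243792-75243821, minus strand): caagactcggaggtagttccGGTTCCGGCG
SERTAD3 (chr19:40444326-40444355, minus strand): gggctggtgggccagaggccAGACGGAGAG
KCNJ8 (chr12:21774697-21774726, minus strand): tagattcagttgcaccttttATTATTTTAA
C15orf39 (chr15:75201862-75201891, plus strand): cccgccccgcccgggaccgcAGACGGCGCC
LRFN3 (chr19:35936354-35936383, plus strand): cgcgcggagcctgcgcctttAAGCGCCGGT

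The motif searched was a C at the start followed by 4 pyrimidines (C or T), read on the gene's strand over the first 5 transcribed bases, and where a gene has several starts one with the motif was taken if there was any. It was in the windows of the 4 ribosomal protein genes shown and in no other of the 17 windows found for the 20 highest and lowest genes. Of all 35116 windows 4.07% held it, and of all 27305 genes with a window 5.14% held it at some start. It was at a start of 6 of 70 genes of mitochondrial ribosomal proteins, 1 of 31 of respiratory complex I, 19 of 386 ZNF genes and 3 of 53 protocadherins. Over other lists the check was void, because too few members had a window: 68 of 86 cytosolic ribosomal protein genes, of which 48 held the motif, 32 of 42 genes of complexes III and IV and ATP synthase, of which 7 held it, and 51 of 69 SOX, KLF and FOX genes, of which 2 held it. A match describes the letters in the window and is not a measured start in these cells.

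The message of the captured protein was among the higher ones. YTHDF1 had 529, 721 and 652 CPM in the inputs and 3769, 3360 and 2446 CPM in RIP, a log2 fold change of 2.33 ± 0.19 (adjusted p = 2.79e-12), with every RIP library above every input and RIP 3 the lowest of them. ADARB1, the gene of the editing enzyme ADAR2, had 474, 546 and 542 CPM in the inputs and 3113, 2849 and 2386 CPM in RIP. Its log2 fold change was 2.42 ± 0.20, with RIP 3 again the lowest RIP library. ADAR, the gene of ADAR1, was at 1.00 ± 0.16. The labels do not say which ADAR gene the fusion carries, and the part of fusion transcripts in these counts was not tested. YTHDF3 rose from 47.2, 59.1 and 52.0 CPM to 223, 198 and 199 CPM, a log2 fold change of 1.97 ± 0.17, and YTHDF2 from 131, 176 and 155 CPM to 342, 295.5 and 361 CPM, a log2 fold change of 1.11 ± 0.18.

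Genes of the m6A machinery went in both directions. Of 12 writer genes, 6 were higher and 4 lower, with a median log2 fold change of 0.34, or 4 and 4 with a median of 0.17 without input 1. RBM15B, which recruits the methyltransferase to RNA, had 124, 156 and 128 CPM in the inputs and 730, 663 and 596 CPM in RIP, with no overlap and a log2 fold change of 2.29 ± 0.19. Its relative RBM15 was at 1.62 ± 0.13, and the scaffold protein VIRMA at 1.11 ± 0.18. METTL3, the catalytic subunit, was lower in RIP, with 78.2, 84.9 and 77.8 CPM in the inputs against 36.8, 34.8 and 49.2 CPM, a log2 fold change of −0.99 ± 0.15. METTL14, its partner, overlapped between the groups at 23.7, 30.6 and 27.7 CPM against 25.4, 21.7 and 34.0 CPM, and was not called (−0.02 ± 0.14, adjusted p = 0.939). Of 16 other m6A readers and erasers, 6 were higher and 8 lower, and HNRNPA2B1 (−1.90 ± 0.23), HNRNPC (−1.70 ± 0.18) and FMR1 (−1.56 ± 0.20) were among the latter. Of 16 genes of the CCR4-NOT deadenylase and the TOB and BTG proteins that bind it, 4 were higher and 7 lower.

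Genes of several transcription factor families were mostly higher in RIP. Of 453 ZNF genes, which encode zinc finger proteins, 332 were higher and 33 lower, with a median of 1.01 against −0.16 over all protein-coding genes. Of 40 ZBTB genes, which encode zinc finger proteins with a BTB domain, 32 were higher and 1 lower, with a median of 1.27 and with ZBTB38 at 2.39 ± 0.17. Of 69 SOX, KLF and FOX genes, 47 were higher and 2 lower, with a median of 1.19. FOXK2, a forkhead factor, had 188, 190 and 194 CPM in the inputs and 814, 759 and 560.5 CPM in RIP, with RIP 3 the lowest and no overlap, and a log2 fold change of 1.90 ± 0.14. The forkhead factors FOXO1 and FOXO3 were at 1.83 ± 0.15 and 1.65 ± 0.12. Of 38 HOX genes, which pattern the body axis, 22 were higher and 2 lower, with a median of 0.53 and HOXC11 at 2.07 ± 0.19. The coactivator gene CREBBP was at 1.82 ± 0.18, MYC at 1.12 ± 0.17 and SON, a splicing cofactor of nuclear speckles, at 1.77 ± 0.21.

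In each list of cell surface and pathway genes more members were higher than lower. Of 60 protocadherin genes, which encode adhesion proteins of the nervous system, 49 were higher and 0 lower, and their median of 1.80 was the highest of the lists of nuclear genes. PCDH10 had 41.8, 43.8 and 53.7 CPM in the inputs and 252, 219 and 152 CPM in RIP, a log2 fold change of 2.16 ± 0.15. RIP 3 was the lowest RIP library there, and over the whole list its own median difference from the inputs was 0.82, against 1.63 and 1.80 for RIP 1 and RIP 2. The clustered alpha and gamma protocadherins share their last exons, so counts of single members are uncertain. Of 48 Wnt pathway genes, 27 were higher and 6 lower, with a median of 0.76. The Wnt receptor gene FZD7 had 57.6, 48.1 and 62.4 CPM in the inputs and 335.5, 346 and 205.5 CPM in RIP, a log2 fold change of 2.40 ± 0.18, and RNF43, which removes such receptors from the surface, was at 1.66 ± 0.16. Of 22 ephrins and ephrin receptors, 15 were higher and 4 lower. Of 27 Notch pathway genes, 13 were higher, among them the coactivator MAML3 at 2.30 ± 0.14, and 8 lower. Of 35 BMP and TGF-beta genes, 17 were higher, SMAD3 at 1.64 and BMP4 at 1.89 among them, and 5 lower. Of 19 dual-specificity phosphatase genes, 10 were higher and 5 lower, or 6 and 5 without input 1, and of 31 KLHL genes, which encode adaptors of ubiquitin ligases, 19 were higher and 5 lower.

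Genes of protein synthesis and energy metabolism were mostly lower. Of 86 cytosolic ribosomal protein genes, 76 were lower and 1 higher, with a median of −2.14, and without input 1 the counts were 78 and 0. Their share of all counts was 2.91% to 3.78% in the inputs and 1.03% to 1.54% in the RIP libraries. Of 79 mitochondrial ribosomal protein genes, 56 were lower and 9 higher, with a median of −1.04 and MRPL13 at −2.62. All 37 complex I genes were lower (median −1.81), NDUFB1 at −2.94 among them. Of 42 genes of complexes III and IV and ATP synthase, 37 were lower and 0 higher (median −2.22), COX6C, whose mean log2 CPM of 3.54 kept it out of the 10 lowest genes above, at −3.63 ± 0.22 and ATP5F1E at −3.09 ± 0.19 among them. Of 17 glycolysis genes, 16 were lower, and GAPDH had 826, 1152 and 1213 CPM in the inputs and 196, 188 and 307 CPM in RIP, a log2 fold change of −2.21 ± 0.26. HPRT1, a purine salvage enzyme, was at −2.59 ± 0.21. ACTB, encoding cytoplasmic actin, overlapped between the groups and was not called (−0.27 ± 0.22, adjusted p = 0.326).

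Most lists of protein folding, targeting and turnover genes also held more lower than higher members. Of 35 proteasome genes, 30 were lower and 0 higher (median −1.37), PSMB2 at −2.40 among them. All 8 genes of the CCT chaperonin, which folds actin and tubulin, were lower (median −1.55). Of 32 genes of the endoplasmic reticulum translocon and signal recognition, 27 were lower and 1 higher (median −1.75), SRP9 at −2.70 and SSR3 at −2.55 among them. Of 31 Sm and LSm proteins, 26 were lower and 1 higher. Of 20 aminoacyl-tRNA synthetases, 14 were lower and 1 higher, and of 47 mitochondrial carriers of the SLC25 family, 22 were lower and 9 higher. Of 56 replication-dependent histone genes, 31 were lower and 0 higher, or 36 and 0 without input 1 with a median of −1.20. H2AC20 was at −2.44 ± 0.28. Many of these genes are near-identical copies, and their messages lack a poly(A) tail.

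**Figure D4:**
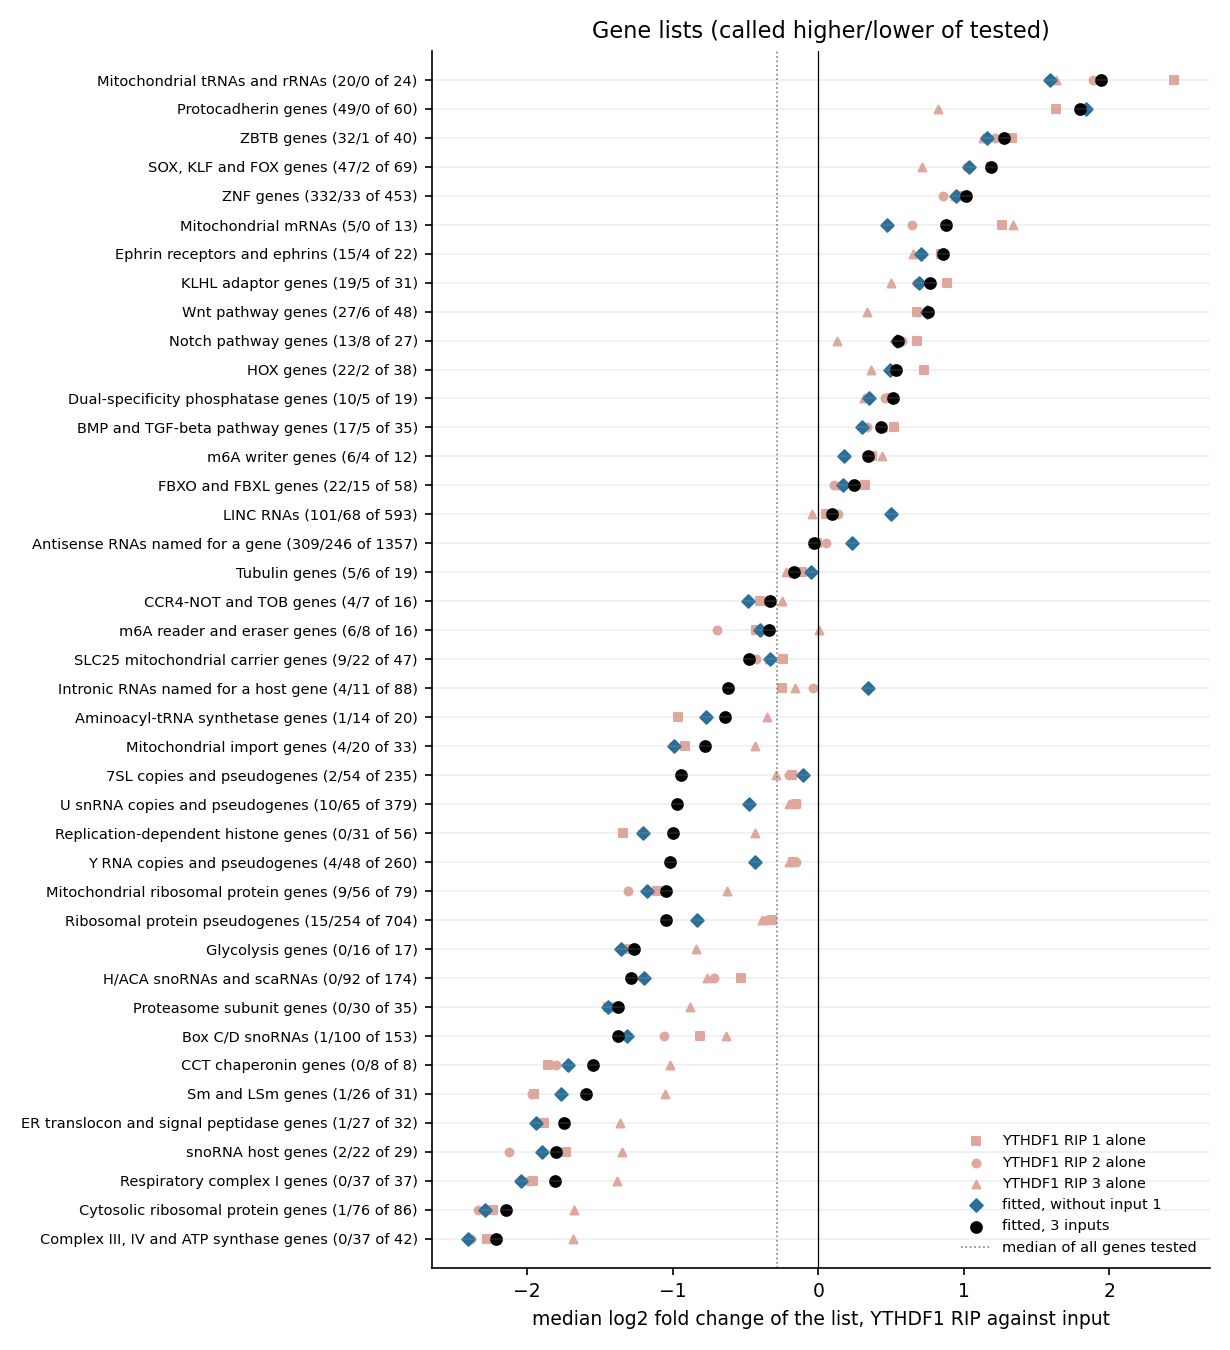
Median log2 fold change of YTHDF1 RIP over input (horizontal axis) for each gene list, with all libraries, without input 1, and for each RIP library alone as the median difference of log2(CPM + 0.5) from the mean of the inputs. Protocadherins reach 1.80 and ribosomal protein genes −2.14.

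Genes with a long single exon had higher median fold changes than genes made of short exons. The deposited exon length is the summed length of a gene's merged exons. Protein-coding genes of 0.5 to 1 kb had a median of −0.75, with 58 of 397 higher and 167 lower, those of 4 to 8 kb a median of −0.12, with 1942 of 6342 higher and 2269 lower, and those of 8 kb or more a median of 0.13, with 1292 of 3423 higher and 991 lower. By the longest single exon, the median was −0.86 for 0.2 to 0.5 kb, where 9.70% of 804 genes were higher and 50.6% lower, and 0.26 for 4 kb or more, where 42.9% of 3173 were higher and 28.8% lower. Across the 15966 protein-coding genes, Spearman's rho with the log2 fold change was 0.171 for exon length, 0.248 for the longest exon and −0.0590 for the number of exons. These are across genes, which are not independent replicates. Both lengths also went with the level of a gene: rho with mean log2 CPM was 0.337 and 0.247. Within 4 bins of level with equal numbers of genes, rho of the longest exon with the fold change was 0.261, 0.248, 0.164 and 0.256 from the lowest to the highest bin, and for exon length it was 0.147, 0.173, 0.0793 and 0.175. Without input 1, rho was 0.134 for exon length and 0.202 for the longest exon. The log2 CPM of input 1 minus that of the other inputs itself had a rho of 0.177 with the number of exons. Within the bins of level, from lowest to highest, it was 0.0714, 0.310, 0.343 and 0.391. With exon length it was 0.0853 over all these genes, and 0.00673, 0.287, 0.299 and 0.361 within the bins. With the longest exon it was −0.0668, and from −0.0672 to 0.0710 within the bins. The part of input 1 in these values was not tested beyond leaving the library out.

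Among genes of like length, those with few exons had higher medians. Single-exon protein-coding genes had a median of 0.84, with 264 of 555 higher (47.6%) and 81 lower (14.6%), against 29.1% and 36.1% over all protein-coding genes. Genes with 2 exons had a median of 0.43, with 265 of 620 higher, and genes with 11 to 20 exons −0.34, with 1154 of 4879 higher and 2061 lower. Among genes of 4 to 8 kb, the median was 1.53 for 1 exon (68 of 85 higher, 5 lower), 1.01 for 2 exons (74 of 118 higher, 18 lower) and −0.32 for 21 or more (190 of 1164 higher, 449 lower). Among genes of 8 kb or more the median was 0.81 for 3 to 5 exons but above 0 at every exon number, with 0.13 for 6 to 10, 0.04 for 11 to 20 and 0.13 for 21 or more (621 of 1752 higher, 412 lower). Within single-exon genes the median was −1.12 at 0.2 to 0.5 kb (5 of 33 higher, 14 lower), 0.62 at 1 to 2 kb, 1.28 at 2 to 4 kb (111 of 187 higher, 18 lower) and 1.52 at 4 kb or more (74 of 93 higher, 6 lower). Without the ZNF and protocadherin genes, which have long last exons, the medians were 0.78 for single-exon genes and 0.18 for a longest exon of 4 kb or more. Without input 1, and with the ZNF and protocadherin genes kept, the medians were 1.03 for single-exon genes and 0.24 for the longest exons.

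**Figure D5:**
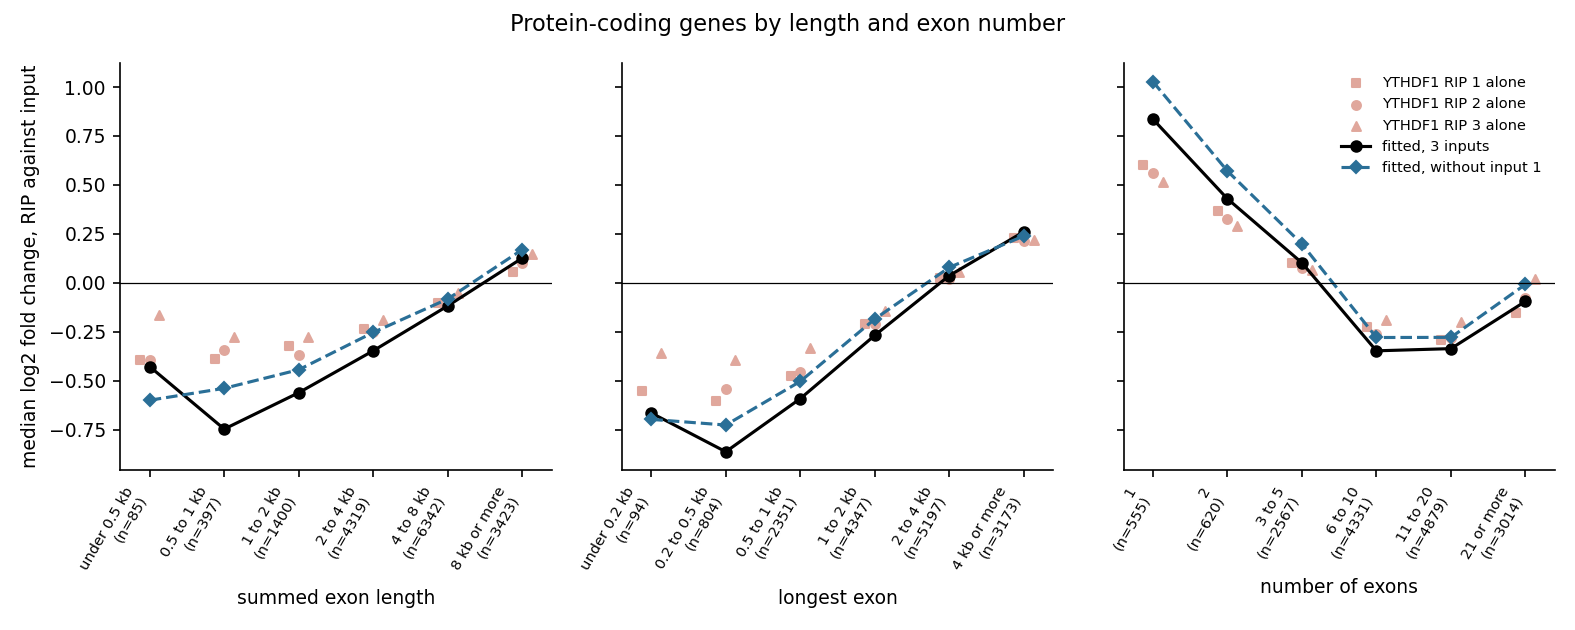
Median log2 fold change of YTHDF1 RIP over input (vertical axes) of protein-coding genes by exon length, by longest exon and by number of exons, with all libraries and without input 1. Medians run from −0.86 to 0.26 over the bins of longest exon and from 0.84 for 1 exon to −0.34 for 11 to 20.

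Among small noncoding RNAs, genes with a call were mostly lower in RIP. The share lower was above the 28.8% over all genes tested for snoRNA genes (51.3%) but not for snRNA genes (22.7%). Of 388 snoRNA genes, which guide modification of ribosomal and other RNAs, 199 were lower and 2 higher, with a median of −1.30 and −1.13 without input 1. Box C/D RNAs (153 tested, 100 lower, 1 higher) and H/ACA RNAs (174 tested, 92 lower, 0 higher) gave medians of −1.38 and −1.28. SNORA71C had 16.1, 21.6 and 14.3 CPM in the inputs and 4.64, 5.07 and 6.10 CPM in RIP, with no overlap and a log2 fold change of −1.71 ± 0.26. Of 423 snRNA genes, 96 were lower and 10 higher. RNU1-2, one of the copies of U1 of the spliceosome, had 748, 2471 and 1212 CPM in the inputs and 78.5, 32.8 and 244 CPM in RIP, a log2 fold change of −3.64 ± 0.77 (adjusted p = 0.000294), and its copies cannot be told apart in these counts. RNU6-395P, a U6-like sequence, was higher, at 0.83 ± 0.20, with 5.53, 5.30 and 7.52 CPM in the inputs and 7.83 to 12.9 CPM in RIP, so RIP 3, the lowest of them, lay next to input 3.

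The 7SL RNAs together took 4.33% to 11.5% of counts in the inputs and 0.188% to 0.788% in RIP. RN7SL3 had 2069, 6009 and 6075 CPM in the inputs and 198, 71.7 and 313 CPM in RIP. Input 1 was the lowest input, yet above every RIP library, and the log2 fold change was −4.60 ± 0.58, or −5.00 without input 1. RN7SL4P and RN7SL5P, whose sequences resemble it, were at −4.70 ± 0.70 and −4.65 ± 0.64, and reads may be shared among them. Over the 235 annotated 7SL copies tested, 54 were lower and 2 higher, and their median of −0.94 was −0.10 without input 1, with 29 lower and 7 higher. The medians of other noncoding classes moved in the same way when input 1 was left out. For miRNA genes it went from −0.67 to −0.10 (121 of 688 lower, 17.6%, and 43 higher). For misc_RNA genes it went from −0.90 to −0.24 (159 of 737 lower, 21.6%, and 27 higher, with 101 lower without input 1). For processed pseudogenes it went from −0.73 to −0.31 (870 of 3407 lower, 25.5%, and 149 higher, with 307 of these genes higher without input 1). These shares lower, and the 23.0% of 7SL copies, were below the 28.8% over all genes tested.

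Long noncoding RNAs went both ways. Of 7995 lncRNA genes, 1377 were higher (17.2%) and 1577 lower (19.7%). Both shares were below those over all genes tested, 20.6% and 28.8%. Their median was −0.16 with all libraries and 0.21 without input 1, so its sign rests on that library. PP7080 had 30.6, 32.9 and 34.3 CPM in the inputs and 228, 215 and 197.5 CPM in RIP, with no overlap and a log2 fold change of 2.71 ± 0.19. Host genes of snoRNAs were mostly lower (22 of 29, 2 higher, median −1.80), with SNHG32 at 30.4, 50.1 and 54.8 CPM in the inputs and 5.23, 4.50 and 8.92 CPM in RIP, a log2 fold change of −2.85 ± 0.37. MIF-AS1 (−3.04 ± 0.30) and RPL30-AS1 (−2.73 ± 0.22) lie against MIF and RPL30, from which their reads cannot be told apart without strand. MALAT1, an abundant nuclear RNA, had 1248, 1542 and 1631 CPM in the inputs and 1012, 2147 and 3914 CPM in RIP. Its RIP libraries lay both below and above all the inputs, and it was not called (0.68 ± 0.44, adjusted p = 0.217).

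Transcripts of the mitochondrial genome were higher in RIP or not called, while nuclear genes of the respiratory chain were mostly lower. Of 13 mitochondrial messages, 5 were higher and 0 lower (median 0.88, or 0.47 without input 1). MT-ND5, a subunit of complex I, had 1044, 2065 and 1821 CPM in the inputs and 7429, 4496 and 6167 CPM in RIP, with no overlap and a log2 fold change of 1.88 ± 0.35. Of 24 mitochondrial tRNA and rRNA genes, 20 were higher and 0 lower (median 1.94). MT-TG, the tRNA for glycine, had 60.7 to 129 CPM in the inputs and 953, 599 and 420.5 CPM in RIP, a log2 fold change of 2.76 ± 0.40. Mitochondrial messages took 0.663% to 1.58% of counts in the inputs and up to 3.06% in RIP, and by this share the lowest RIP library lay above the highest input. In summed CPM the groups overlapped, at 18398 in the lowest RIP library and 18681 in the highest input.

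The authors' deposited editing table of the YTHDF1-ADAR cells did not enter the fold changes. By its labels it comes from the same input and YTHDF1 RIP samples, so it is not independent of the counts. It gives, per gene, the number of edited sites and an editing score for input and for YTHDF1 RIP, with no value per replicate, so no test was possible. The score was read as a sum of levels over sites. That was inferred from the values and is not stated in a header, and the scores per site below rest on it. It lists 7829 genes, and 7815 of them matched a tested protein-coding gene by a symbol that no other gene shares. Of genes called higher in RIP, 3411 of 4521 were listed, with a median of 18 sites and 3.02 sites per kb of exon. Of genes called lower, 2276 of 5550 were listed (41.0%), with a median of 2 sites and 0.435 per kb, and of the remainder 2128 of 5386 (39.5%), with a median of 5. The median score per site, as a percent, was 3.48 in input and 4.91 in RIP for the genes called higher, and 1.31 and 1.98 for those called lower. Whether a gene is listed depends on its coverage, so the shares were read within bins of level. The bins use the mean level of the 6 libraries, so within a bin genes called higher tend to have more RIP coverage than genes called lower. The part of that in the shares and site numbers was not tested. In the highest bin, 1672 of 1690 genes called higher were listed (98.9%), with a median of 35 sites, against 882 of 1221 genes called lower (72.2%), with a median of 3. In the lowest bin the order was the opposite, 4.36% against 6.67%. All 10 of the highest genes were listed, C15orf39 with 105 sites and LRFN3 with 82, and 4 of the 10 lowest, each with 1 or 2 sites. RBM15B had 205 sites.

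The enrichment differed from that of the same antibody in the other lines. The 6 YTHDF1 RIP libraries from YTHDF2-ADAR and YTHDF3-ADAR cells were unlike all other RIP libraries, with protein-coding genes at 54.1% to 74.2% of counts and snoRNA genes at 0.696% to 4.35%, against 0.0677% to 0.217% in the YTHDF1 RIP here, so the line and the make-up of those libraries cannot be told apart. The difference between the log2 fold change in YTHDF1-ADAR cells and the mean of those in YTHDF2-ADAR and YTHDF3-ADAR cells was tested in the same model, and 8571 genes were higher (26.9%) and 13502 lower (42.4%). With scaling factors from protein-coding genes alone the counts were 6356 and 16169, and without input 1 of the YTHDF1-ADAR cells 9569 and 9639. Leaving out input 3, RIP 1, RIP 2 or RIP 3 of these cells also gave nearer counts, 10915 and 11590, 10542 and 11321, 10809 and 11462, and 9857 and 11856, so the split moves with the scaling and with most single libraries. C14orf119 had a log2 fold change of 2.30 in YTHDF1-ADAR cells against −2.04 and −2.11 in the others, a difference of 4.38 ± 0.27, and TMEM121 a difference of 4.01 ± 0.32. L3MBTL1, a chromatin-binding protein, went the other way, at −1.15 against 2.80 and 2.65, a difference of −3.87 ± 0.27. Of the 10 highest genes above, 1 was higher and 7 were lower in RIP in YTHDF2-ADAR cells, and 1 was higher and 6 lower in YTHDF3-ADAR cells. Of all genes tested, 41.8% were higher and 33.4% lower in YTHDF2-ADAR cells, and 40.8% and 32.4% in YTHDF3-ADAR cells. The exception was TMPRSS9, at 5.26 and 5.43. Each of the 10 lowest genes was lower in both of the other lines, to be read against the same shares. SOX, KLF and FOX genes had a median difference of 1.82 (51 of 69 higher, 10 lower), and box C/D snoRNAs a median difference of −3.58 (0 of 153 higher, 150 lower). These medians ran from 1.42 to 1.81 and from −3.99 to −3.59 under the other scalings. Without input 1 of the YTHDF1-ADAR cells they were 1.98 and −3.09, outside those ranges.

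Within the YTHDF1-ADAR cells, the YTHDF1 RIP was also compared directly with the RIP of the other readers, and these contrasts share the YTHDF1 RIP libraries with the comparison above. YTHDF2 RIP 3 stood apart, with miRNA genes at 5.97% of counts and protein-coding genes at 82.8%, against at least 90.04% in the other 2. Against YTHDF2 RIP, 6451 genes were higher (20.3%) and 5996 lower (18.8%), or 39.1% in either direction, and without YTHDF2 RIP 3, a setting chosen after seeing the data, 5783 and 5958. GEMIN7 (3.54), TMPRSS9 (3.87) and SDHAF2, an assembly factor of succinate dehydrogenase (3.14 ± 0.19), were among the highest, and SERINC1, a membrane protein (−3.32 ± 0.20), and ODC1, the first enzyme of polyamine synthesis (−2.99), among the lowest. Of 60 protocadherins 44 were higher and 0 lower, and all 8 CCT genes were lower, and without YTHDF2 RIP 3 these counts were 47 and 0, and again 8. Against YTHDF3 RIP, 7143 genes were higher (22.4%) and 5944 lower (18.7%), or 41.1% in either direction. UCP2, a mitochondrial carrier (−3.83 ± 0.22), and YWHAZ, a 14-3-3 protein (−3.01), were among the lowest. Of the 56 histone genes 36 were higher and 0 lower, and of the 24 mitochondrial tRNA and rRNA genes 22 were higher than in each of the other RIPs, or 17 against YTHDF2 RIP without its replicate 3. The 10 highest genes of the comparison with input were higher in YTHDF1 RIP than in either. They were picked for high values in the same YTHDF1 RIP libraries, so this is not separate support. Of the 10 lowest, 4 were lower than in YTHDF2 RIP and 3 were higher than in YTHDF3 RIP.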

How the data were processed

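The members, gene lists and tests were chosen with earlier results of these data known. Read counts per gene were deposited by the authors. Reads were aligned with STAR 2.7.7 and counted with featureCounts 2.0.1 on GRCh38 (hg38), per the submitters' processing notes. Per the file headers, counting used Ensembl 102 exons, all overlaps and multiple matches, no strand and no duplicates, so reads of gene copies, overlapping genes and antisense partners are shared. Of the deposited count columns, 0 were left unused. The authors' deposited table of log2 fold changes (DESeq2, per the submitters' processing notes) was only described. The authors' deposited editing table gives an editing score per gene, taken as a sum over sites and divided here by the number of sites. Symbols came from the deposited tables for 40818 genes and from the reference table for 1276, and 18581 have none.

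The counts of all 36 libraries were fitted in 1 model of 12 groups with edgeR 4.0.16 (R 4.3.3, limma 3.58.1), filtered by filterByExpr, scaled by TMM and tested with the quasi-likelihood test. P-values were adjusted by Benjamini-Hochberg over all 31849 genes tested, and an adjusted p below 0.05 is called. Changes are log2 fold changes ± SE. Tables were made with Python 3.11.15 and scipy 1.17.1, and the fit was tested on simulated data. Alternatives were other scalings, no filter, DESeq2 1.42.0, the 6 libraries alone, a replicate block and each library left out. Genes named are the 10 highest and 10 lowest called protein-coding genes with a mean log2 CPM of at least 4, groups that do not overlap and the same call without input 1, the 3 highest and 3 lowest in each of 4 noncoding classes at a mean of at least 2, up to 3 of smallest p per list, up to 5 per side of each other contrast, and 15 fixed genes.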

Additional observations from a re-analysis of the deposited data

Results flagged for a closer look

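The enrichment in YTHDF1 RIP over input differed between YTHDF1-ADAR cells and the mean of the other lines for 8571 genes with a higher value and 13502 with a lower one (edgeR quasi-likelihood test of the difference itself, adjusted p below 0.05). The 31849 genes tested are the base of both counts.

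The count table also holds a rat Apobec1 sequence, which no comparison above uses. It had 23 counts in YTHDF1 RIP replicate 3, against 2 and 1 in RIP replicates 1 and 2 and 2, 6 and 0 in inputs 1 to 3. The labels of these 6 libraries name no such sequence.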

How the results depend on the processing

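Counts of genes higher and lower than input ran from 6008 to 7514 and from 6106 to 9322 over the other settings, and from 5961 to 6988 and from 7612 to 8962 when each library was left out in turn. The low end, 6106, came from the 6 libraries alone. Settings added after seeing the data were the 6 libraries less input 1 (6421 higher, 6601 lower) and the fit less the YTHDF1 RIP of the other lines (6638 and 8425). The lncRNA median turned from −0.16 to 0.10 in the 6 libraries alone, 0.28 in the 6 libraries less input 1 and, over the left-out libraries, values from −0.30 to 0.21, the latter without input 1. Lower lncRNA genes numbered 852 and 869 in the 6 libraries with and without input 1, misc_RNA 61 and 65, snRNA 47 and 55, and miRNA 59 and 64. Lower processed pseudogenes numbered 440 in the 6 libraries and lower snoRNA genes 125 in the 6 less input 1, lower snRNA genes 62 in the fit less the other lines' YTHDF1 RIP, and higher processed pseudogenes 227 in the 6 less input 1. Higher processed pseudogenes ran from 118 to 310 over the left-out libraries, the latter without input 1. Spearman's correlation of the fold change with exon length ran from 0.134 to 0.185 over the left-out libraries and that with the longest exon from 0.202 to 0.267, with 0.219 in the 6 libraries less input 1. The cause of these shifts was not tested. The difference between lines ran from 8417 to 10915 higher and from 9639 to 13620 lower over the left-out libraries. Replicate numbers did not pair the samples: deviations of same-numbered input and RIP libraries correlated at 0.127, −0.562 and 0.0161, not every library correlated best with its own number, and with a replicate block 6454 genes were higher and 8780 lower. Of the values of named genes under all alternatives, 2893 kept direction and call, 31 lost the call and 1 gained it. Most of these genes were picked for being called, many also for the same call without input 1. The choice of genes thus largely fixed this count, which says little about genes in general. Few counts limit most small noncoding genes.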

Other observations

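Further gene lists went as follows, with the number tested and the median log2 fold change of YTHDF1 RIP over input. Of 593 long intergenic noncoding (LINC) genes, 101 were higher and 68 lower, with a median of 0.09, or 0.50 without input 1. Of 88 RNAs annotated within introns of other genes, 4 were higher and 11 lower with a median of −0.62, or 19 and 5 with a median of 0.34 without input 1. Of 260 Y RNA copies, 48 were lower and 4 higher (median −1.02), or 28 and 6 without input 1 (median −0.44), and of 704 ribosomal protein pseudogenes, 254 were lower and 15 higher (median −1.05), or 250 and 42 without input 1, whose reads cannot be told apart from those of their parent genes. Of 58 FBXO and FBXL genes, which encode substrate receptors of ubiquitin ligases, 22 were higher and 15 lower (median 0.25), FBXO31 at 2.19 among the former. Of 33 mitochondrial import genes, 20 were lower and 4 higher (median −0.78), TOMM20 at −1.95 among the former. Of 19 tubulin genes, 5 were higher and 6 lower, or 2 and 6 without input 1, and their median of −0.17 was 0.02 when scaled by total counts. Of 1357 antisense RNAs named for a gene, 309 were higher and 246 lower. Their median of −0.03 was 0.23 without input 1 and 0.12 when scaled by DESeq2's size factors, and without strand their reads cannot be told apart from those of the genes they overlap. Of 379 spliceosomal U snRNA copies, 65 were lower and 10 higher (median −0.97, or −0.48 without input 1). The shares lower of Y RNA copies (18.5%) and U snRNA copies (17.2%) were below the 28.8% over all genes tested. So were those of LINC genes (11.5%), RNAs within introns (12.5%) and antisense RNAs (18.1%). The shares higher of LINC genes (17.0%) and RNAs within introns (4.55%) were below the 20.6% over all genes tested, and that of antisense RNAs (22.8%) was above it.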
